A study of Homo sapiens with 6 samples.

Results

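Integrins are cell-surface receptors made of 1 alpha and 1 beta chain, and the genes described here are 19 integrin chains and 23 adaptors, kinases and caveolar proteins that act beside them. They were taken as a fixed list of 42 gene symbols. All 42 had a row in the deposited table of 25202 rows: 11 alpha chains, 8 beta chains and 23 adaptors. Of these, 39 had enough counts to be tested, and the other 3 (ITGB2, ITGB7 and TNS4) are given as counts. The libraries were RNA-seq of Huh7, an established human hepatoma line, 3 labelled WT that carried the control guide sgNC and 3 labelled KO that carried the guide sghnRNPA2B1 against HNRNPA2B1. HNRNPA2B1 encodes an RNA-binding protein with roles in splicing and RNA transport. Nothing in the labels tells whether the 3 libraries of a group came from different cultures, or whether the KO cells were 1 clone or a pool. A p-value here thus reflects library-to-library spread, which may be technical.

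An integrin heterodimer binds a matrix protein outside the cell, and the pairing of its chains sets which one. Inside the cell the beta tail is bound by talins and kindlins, which switch the receptor to its active state. Vinculin, tensins and the complex of ILK, parvins and PINCH then link it to actin, and the kinases FAK (PTK2) and SRC signal through paxillin and p130Cas (BCAR1). In hepatocytes and hepatoma cells these adhesions hold the cell to laminin, collagen, fibronectin and vitronectin.

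Totals ran from 32517757 to 38870244 counts per library. HNRNPA2B1 itself had 1101, 1072 and 1468 CPM (read counts scaled to a common library size) in the controls and 219.9, 235 and 234 CPM in the knockout. It fell 5.29-fold (log2 fold change −2.40 ± 0.14 SE, edgeR adjusted p = 2.28e-06). Of 12 genes chosen as signs of hepatoma identity, all were detected, 9 were lower in the knockout and KRT18 was higher; their summed level was 20130 to 23230 CPM in the controls and 13830 to 14820 CPM in the knockout. Markers of other cells that use integrins were mostly at or near 0 where they define the cell: PTPRC (leukocytes) had 0 counts in the controls and 7, 18 and 0 in the knockout, and PF4, PPBP and GP9 (platelets) had 0 throughout. With GP1BA, which fell, the platelet list summed to 6.82 to 9.62 CPM in the controls and 3.55 to 4.96 CPM in the knockout. TUBB1 on that list went the other way. It was higher in every knockout library but not called (log2 fold change 0.81 ± 0.31 SE, edgeR adjusted p = 0.0596). ITGA2B, the remaining tested gene there, was lower in every knockout library and not called. LYZ and CD68, also on the leukocyte list, were well expressed and fell, so that list summed to 511 to 579 CPM in the controls and 219 to 238 CPM in the knockout. The endothelial list summed to 54.6 to 70.4 CPM in the controls and 31.1 to 35.3 CPM in the knockout, nearly all of it PECAM1, and TEK had 0 counts. Knockout replicate 2 stood out for fibroblast transcripts, with 165 counts of COL1A1, 262 of COL3A1 and 36 of DCN against at most 23, 30 and 4 in any other library. The fibroblast list summed to 7.33 to 9.03 CPM in the controls and 11.4 to 28.1 CPM in the knockout. Of its 4 tested genes 3 were called higher, where 21.1% of all genes tested were. Of these 3, LUM and PDGFRB were higher in every knockout library. The other, COL3A1, overlapped between the groups, with 0, 19 and 0 counts in the controls against 30, 262 and 14 (edgeR adjusted p = 0.0437). The remaining tested gene, RGS5, went the other way. It was lower in every knockout library but not called (log2 fold change −0.61 ± 0.25 SE, edgeR adjusted p = 0.0798). What part these transcripts have in the results was not tested; calls that need knockout replicate 2 are named.

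CPM values here are scaled by TMM (trimmed mean of M-values), and a gene was called when edgeR's quasi-likelihood test gave an adjusted p below 0.05 over all 16331 genes tested. By that test 20 of the 39 tested members were higher in the knockout and 3 were lower, while 16 were not called. Without knockout replicate 1, 2 or 3 the members called higher numbered 12, 11 and 12. In these settings 14.2%, 14.8% and 15.7% of all genes tested were called higher. With every library kept, 21.1% of all genes tested were called higher and 19.0% lower. At a fold change of at least 2, 7 members were higher and none was lower, against 10.6% and 3.31% of all genes. Tested members had a median log2 fold change of 0.42, beside 0.05 over all genes tested. Knockout and control libraries did not overlap for 28 of the 39, and for 54.3% of all genes tested. In bulk RNA, a change in the number of cells of a kind and a change in RNA per cell cannot be told apart.

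Falls were called more often among abundant genes in these libraries, so the members were also read by abundance. Of the 11 members with a mean log2 CPM below 3, 7 were called higher and none lower. Among these, ITGA11 and ITGB6 passed the filter through their knockout counts alone, so they could enter the test only as rises. They are also among the 7 members higher at 2-fold or more. Of all genes tested, 18.6% below 0 and 30.8% from 0 to 3 were called higher. Only 1.87% and 7.02% in these classes were called lower, so no fall among 11 members is close to those shares. From 3 to 6, 6 of 11 members were higher and 1 lower, where 22.2% and 20.0% of all genes were. At 6 or more, 7 of 17 members were higher and 2 lower, beside 11.6% and 38.3% of all genes, and the medians were 0.16 for the members and −0.21 for all genes.

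**Figure D1:**
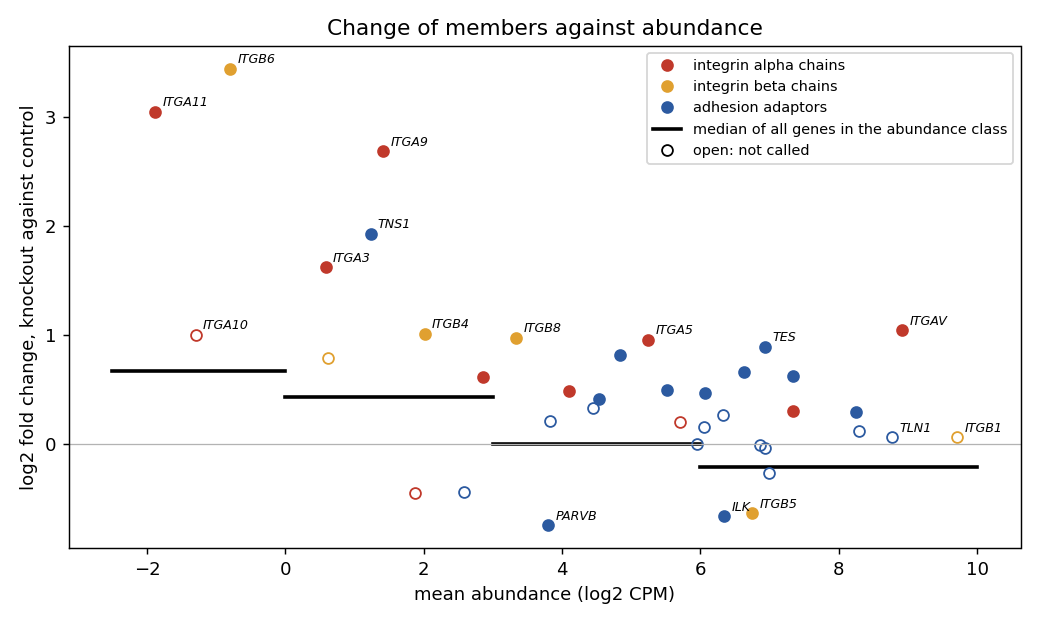
Fitted log2 fold change of each tested member (knockout against control) over its mean log2 CPM. Filled points are called members, open points are not called, and black bars give the median of all genes tested in each abundance class (0.67, 0.43, 0.00 and −0.21 from rare to abundant); ITGAV stands highest among members at 6 or more and ITGB5, ILK and PARVB lie below 0.

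Promoter sequence is shown for 4 members on which the results turn: the abundant alpha chains ITGAV and ITGA5 and the LIM-domain protein TES, which rose, and the kinase-like adaptor ILK, which fell. RefSeq windows of 250 bases before to 50 bases after a start site (build GRCh38.p14) were found for 29 of the 42 members, 59 windows in all. Where a gene has several starts, as ITGAV and TES have, the first one listed is printed. Capitals mark matches, on either strand, to a few short motifs. The motif of the AP-1 factors was searched as TGANTCA and that of the TEAD factors as GGAATG. The GC box was searched as GGGCGG, the TATA box as TATAAA and the CCAAT box by those 5 letters.
ITGAV promoter, chr2:186589806-186590105, plus strand: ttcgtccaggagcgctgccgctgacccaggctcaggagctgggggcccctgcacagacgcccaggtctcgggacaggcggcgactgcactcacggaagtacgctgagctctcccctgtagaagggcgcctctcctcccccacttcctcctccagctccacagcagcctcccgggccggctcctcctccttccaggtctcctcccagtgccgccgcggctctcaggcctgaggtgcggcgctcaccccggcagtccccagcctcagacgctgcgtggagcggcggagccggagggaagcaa
ITGA5 promoter, chr12:54419217-54419516, minus strand: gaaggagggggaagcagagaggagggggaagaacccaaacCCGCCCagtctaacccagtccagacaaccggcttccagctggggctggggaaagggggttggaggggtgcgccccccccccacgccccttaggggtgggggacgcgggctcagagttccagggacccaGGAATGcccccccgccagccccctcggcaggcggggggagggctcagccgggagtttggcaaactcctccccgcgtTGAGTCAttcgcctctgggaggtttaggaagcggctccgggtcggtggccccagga
TES promoter, chr7:116210289-116210588, plus strand: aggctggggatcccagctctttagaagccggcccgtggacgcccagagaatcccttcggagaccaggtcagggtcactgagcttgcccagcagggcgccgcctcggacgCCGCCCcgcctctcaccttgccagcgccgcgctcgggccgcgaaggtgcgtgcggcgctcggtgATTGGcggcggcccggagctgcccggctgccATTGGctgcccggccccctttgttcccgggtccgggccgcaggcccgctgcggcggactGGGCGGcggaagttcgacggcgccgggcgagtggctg
ILK promoter, chr11:6603524-6603823, plus strand: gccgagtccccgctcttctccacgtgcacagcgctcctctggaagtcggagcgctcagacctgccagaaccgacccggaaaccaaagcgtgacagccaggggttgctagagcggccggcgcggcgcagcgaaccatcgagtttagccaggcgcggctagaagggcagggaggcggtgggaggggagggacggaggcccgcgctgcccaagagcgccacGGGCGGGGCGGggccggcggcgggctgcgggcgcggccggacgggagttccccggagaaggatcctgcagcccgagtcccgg
The ITGAV window held none of these motifs. The ITGA5 window held 1 AP-1, 1 TEAD and 1 GC box match, the TES window 2 GC box and 2 CCAAT matches, and the ILK window 2 GC box matches. Over all 35116 windows in the table, 7.71% held the AP-1 letters, 14% the TEAD letters, 45% the GC box, 11.5% the TATA box and 34.6% CCAAT. Over the members' 59 windows, which include several starts of 1 gene, the shares were 10.2%, 16.9%, 55.9%, 6.78% and 18.6%. A match describes these letters and is not a shown binding site.

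Of 11 chains, all tested, 8 were higher in the knockout and none was lower, with a median log2 fold change of 0.96 (0.05 over all genes tested). The shares over all genes tested were 21.1% higher and 19.0% lower. The 3 not called were ITGA2, ITGA7 and ITGA10. Leaving out control replicate 2 left 5 called higher, and leaving out knockout replicate 1, 2 or 3 left 4, 4 and 3. The share of all genes called higher was 18.9% without that control library and 14.2%, 14.8% and 15.7% without those knockout libraries. In 4 of the 8 the rise was at least 2-fold: ITGAV, ITGA3, ITGA9 and ITGA11. Of these, ITGA11 passed the filter through its knockout counts alone.

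ITGAV and ITGA5, the members among the alpha chains that read the RGD (arginine-glycine-aspartate) motif, both rose. Of the other chains of that class, ITGA2B was not called (log2 fold change −0.48 ± 0.45 SE, edgeR adjusted p = 0.417), and ITGA8 had too few counts to test. ITGAV, whose dimers bind vitronectin, fibronectin and latent TGF-beta, had 376, 254 and 313 CPM in control replicates 1, 2 and 3 and 641, 692 and 618 CPM in knockout replicates 1, 2 and 3. Every knockout library lay above every control library, and the rise was 2.07-fold (log2 fold change 1.05 ± 0.14 SE, edgeR adjusted p = 0.000342). ITGA5, the alpha chain of the classical fibronectin receptor, had 26.1, 29.9 and 21.3 CPM in the controls and 46.2, 51.6 and 52.5 CPM in the knockout. Its groups did not overlap either, at 1.95-fold (log2 fold change 0.96 ± 0.14 SE, edgeR adjusted p = 0.000544). The calls of ITGAV and ITGA5 held in each of 16 other settings, and their log2 fold changes ran from 0.91 to 1.35 and from 0.82 to 1.14.

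Laminin receptors went unevenly. ITGA6, which pairs with ITGB1 or ITGB4 and is the main laminin-binding chain of many epithelial cells, had 148, 131 and 154 CPM in the controls and 179, 176 and 178 CPM in the knockout. The groups were apart but the rise was small, 1.23-fold (log2 fold change 0.30 ± 0.10 SE, edgeR adjusted p = 0.0400). ITGA3 was rare, at 0.701, 1.02 and 0.366 CPM in the controls and 1.86, 1.71 and 2.88 CPM in the knockout, with no overlap. It rose 3.09-fold (log2 fold change 1.63 ± 0.43 SE, edgeR adjusted p = 0.0126). ITGA7, best known from muscle, ran the other way without being called, at 3.99, 3.99 and 4.59 CPM in the controls and 3.07, 2.65 and 3.49 CPM in the knockout (adjusted p = 0.133).

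Among the 4 collagen-binding chains 2 were called. ITGA1 had 14.3, 12.3 and 16.1 CPM in the controls and 19.5, 21.0 and 19.5 CPM in the knockout, 1.41-fold higher and without overlap (edgeR adjusted p = 0.0168). ITGA2, whose gene lies near ITGA1 on chromosome 5 with 1 protein-coding gene between them, had 54.9, 35.8 and 53.8 CPM against 52.2, 59.8 and 54.4 CPM. Its groups overlapped and it was not called (log2 fold change 0.20 ± 0.16 SE, adjusted p = 0.337). For ITGA11, a chain typical of fibroblasts, counts were 0, 0 and 4 in control replicates 1 to 3 and 14, 13 and 14 in the knockout. The knockout libraries were alike here, including replicate 2, and its log2 fold change was 3.05 ± 1.03 (SE; edgeR adjusted p = 0.0375), a call from few counts. Its size rests on single libraries: it was 6.73 without control replicate 3, where all its control counts lie, 2.39 without control replicate 1 and 1.39 with cyclic loess. ITGA10, a chain of cartilage, had 4, 10 and 8 counts against 14, 26 and 11, which overlapped (adjusted p = 0.251).

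ITGA9, a receptor chain for tenascin and other matrix proteins, had the smallest p of all the integrin genes. It had 0.863, 0.687 and 0.499 CPM in the controls and 4.89, 4.45 and 4.03 CPM in the knockout, a clear gap. That was 6.45-fold higher (log2 fold change 2.69 ± 0.29 SE, edgeR adjusted p = 0.000105). ITGAE, the E-cadherin receptor chain of intraepithelial lymphocytes, had 7.03, 4.94 and 4.99 CPM in the controls and 9.12, 7.84 and 9.11 CPM in the knockout. The groups were apart, at 1.53-fold (edgeR adjusted p = 0.0291). Its known partner ITGB7 was barely seen, with counts of 0, 2 and 0 in the controls against 0, 7 and 3, a ratio of 4.42 with a 95% counting interval of 0.942 to 41.5 (exact binomial). In GENCODE 29 the exons of ITGB7 overlap those of ZNF740 on the opposite strand, and no source used here says whether counting used strand.

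Several of the alpha chain calls were near the threshold and depended on the libraries used. ITGA6 was not called without control replicate 1 or 2 (adjusted p = 0.0509 and 0.0678) or without any 1 of the knockout libraries (0.142, 0.127 and 0.123), with the replicate number as a block (0.102), with DESeq2's size factors (0.0564) or with no filter (0.0588). ITGA11 was not called without control replicate 1 or 2 (0.105 and 0.113), without any 1 knockout library (0.104, 0.103 and 0.104), with the replicate block (0.0614), with DESeq2 (0.0801) or with no filter (0.105). ITGA1 was not called without any 1 knockout library (0.0565, 0.0794 and 0.0530). ITGAE was not called without control replicate 2 or 3 (0.0782 and 0.0637) or any 1 knockout library (0.103, 0.0541 and 0.0963), and ITGA3 was not without knockout replicate 3 (0.0653). Cyclic loess scaling ended the calls of ITGA1 (0.0511), ITGA3 (0.0664), ITGA11 (0.155) and ITGAE (0.161). With it ITGA7 was called lower (log2 fold change −0.81, adjusted p = 0.0147).

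**Figure D2:**
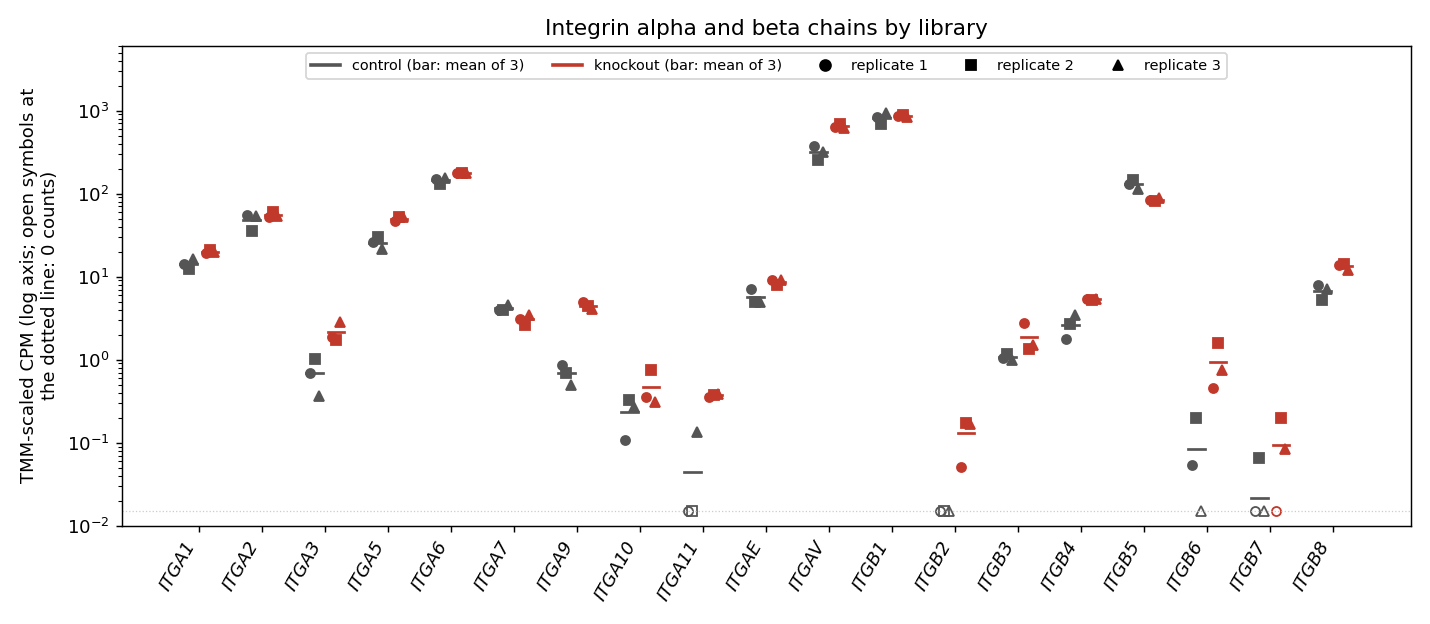
TMM-scaled CPM (log axis) of the 19 integrin chains in each library, grey for control and red for knockout, with symbols for replicates 1 to 3 and a bar at each mean; open symbols at the dotted line are 0 counts. ITGAV, ITGA5 and ITGA9 sit higher in all 3 knockout libraries, ITGB5 sits lower, and ITGB1 overlaps between the groups.

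Beta chains moved in both directions and the most abundant one was not called. Of 8 beta chains 6 were tested. Of these, 3 were higher (ITGB4, ITGB6 and ITGB8), ITGB5 was lower, and ITGB1 and ITGB3 were not called. Over all genes tested 21.1% were higher and 19.0% lower, so the fall was near its share. ITGB1, the partner of most alpha chains, had 833, 697 and 930 CPM in the controls and 850, 888 and 833 CPM in the knockout. The groups overlapped and the log2 fold change was 0.06 ± 0.12 (SE; edgeR adjusted p = 0.691). Cyclic loess scaling with limma-trend, however, gave it a log2 fold change of 0.40 and called it higher (adjusted p = 0.0310), and without control replicate 2 the value was −0.05.

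The 5 beta chains that can pair with ITGAV differed from each other. ITGB5, which with ITGAV forms a vitronectin receptor, had 132, 148 and 112 CPM in the controls and 82.8, 82.4 and 87.5 CPM in the knockout. The groups did not overlap, with the knockout 1.55-fold lower (log2 fold change −0.63 ± 0.12 SE, edgeR adjusted p = 0.00253). ITGB8, which with ITGAV binds latent TGF-beta, had 7.90, 5.30 and 7.02 CPM in the controls and 13.8, 14.2 and 11.9 CPM in the knockout. The groups did not overlap, at 1.97-fold higher (log2 fold change 0.98 ± 0.18 SE, edgeR adjusted p = 0.00222). The calls of ITGB5 and ITGB8 held in all 16 other settings. For ITGB6, an epithelial chain that also binds latent TGF-beta with ITGAV, counts were 2, 6 and 0 in the controls against 18, 56 and 27. All knockout libraries lay above the controls (log2 fold change 3.44 ± 0.88 SE, edgeR adjusted p = 0.0110). ITGB6 passed the filter through its knockout counts alone, and the most counts were in knockout replicate 2. Without that library the log2 fold change was 2.81 and the call was lost (adjusted p = 0.0710). It was 4.83 without control replicate 2 and 2.08 with cyclic loess, called in both. ITGB3, known from platelets and endothelium, had 1.05, 1.18 and 0.997 CPM in the controls and 2.75, 1.34 and 1.48 CPM in the knockout. The groups were apart, with knockout replicate 1 well above the others, and it was not called (log2 fold change 0.79 ± 0.37 SE, adjusted p = 0.117). Of the 4394 exon bases of ITGB3 in GENCODE 29, 2266 are shared on the same strand with another protein-coding gene that has its own row, so its counts are uncertain.

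ITGB4, which joins ITGA6 in hemidesmosomes, had 1.75, 2.68 and 3.49 CPM in the controls and 5.31, 5.19 and 5.45 CPM in the knockout. The groups were apart, at 2.02-fold (log2 fold change 1.01 ± 0.27 SE, edgeR adjusted p = 0.0125), and cyclic loess ended the call (0.0683). ITGB2, the common beta chain of leukocyte integrins, was not seen in any control library and had counts of 2, 6 and 6 in the knockout. With 3 counts put in for the control group, the ratio of knockout to control was 4.13. The knockout counts were taken as seen, so this is not a lower limit.

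Levels per kilobase of exon are given next over the 11 alpha and 8 beta chains among the members, and the sums and shares leave out other alpha chains. Of those, ITGAL stood at 3.36 ± 0.162 CPM per kilobase in the controls and 2.72 ± 0.300 in the knockout (SD, n = 3 each). Among the alpha chains of the list ITGAV and ITGA6 came first and second in both groups. ITGAV stood at 43.7 ± 8.49 CPM per kilobase in the controls and 90.2 ± 5.26 in the knockout (SD, n = 3 each). ITGA6 stood at 24.7 ± 2.07 and 30.5 ± 0.249 CPM per kilobase. ITGA2 (6.12 ± 1.36) and ITGA5 (5.79 ± 0.977) followed in the controls and did not differ beyond their spread. In the knockout ITGA5, at 11.3 ± 0.767 CPM per kilobase, stood above ITGA2 at 7.05 ± 0.495. The other 7 alpha chains of the list stood at 2.25 CPM per kilobase or less in both groups. Among beta chains ITGB1, at 209 ± 29.9 and 218 ± 7.17 CPM per kilobase, exceeded ITGB5, at 29.9 ± 4.06 and 19.3 ± 0.655. ITGB8 followed at 0.731 ± 0.143 and 1.44 ± 0.133, and ITGB4, ITGB3 and the others lay lower.

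The 11 alpha chains summed to 94.7, 72.6 and 85.5 CPM per kilobase in the controls and 143, 151 and 141 in the knockout. That was a ratio of 1.72, with the groups apart (exact permutation p = 0.1, 2-sided, the smallest that 3 against 3 allows). The 8 beta chains summed to 244, 212 and 264 in the controls and 238, 248 and 235 in the knockout (exact permutation p = 1, 2-sided). ITGAV took 55.1%, 48.6% and 50.9% of the alpha chain sum in the controls and 62.4%, 63.6% and 60.7% in the knockout. The share of ITGA6 went the other way, from 26.8%, 30.9% and 30.9% to 21.5%, 20.0% and 21.6%. ITGB5 took 12.4%, 15.9% and 9.72% of the beta chain sum in the controls and 7.95%, 7.60% and 8.53% in the knockout. These 3 shares did not overlap between the groups, and each had an exact permutation p of 0.1. The same held for other chains, among them ITGB1, at 83.5% to 89.7% in the controls and 90.3% to 91.1% in the knockout. Shares of 1 sum depend on each other: that of ITGA6 fell although its own level was called higher. Shares rest on exon lengths of GENCODE 29 and do not depend on how libraries were scaled.

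**Figure D3:**
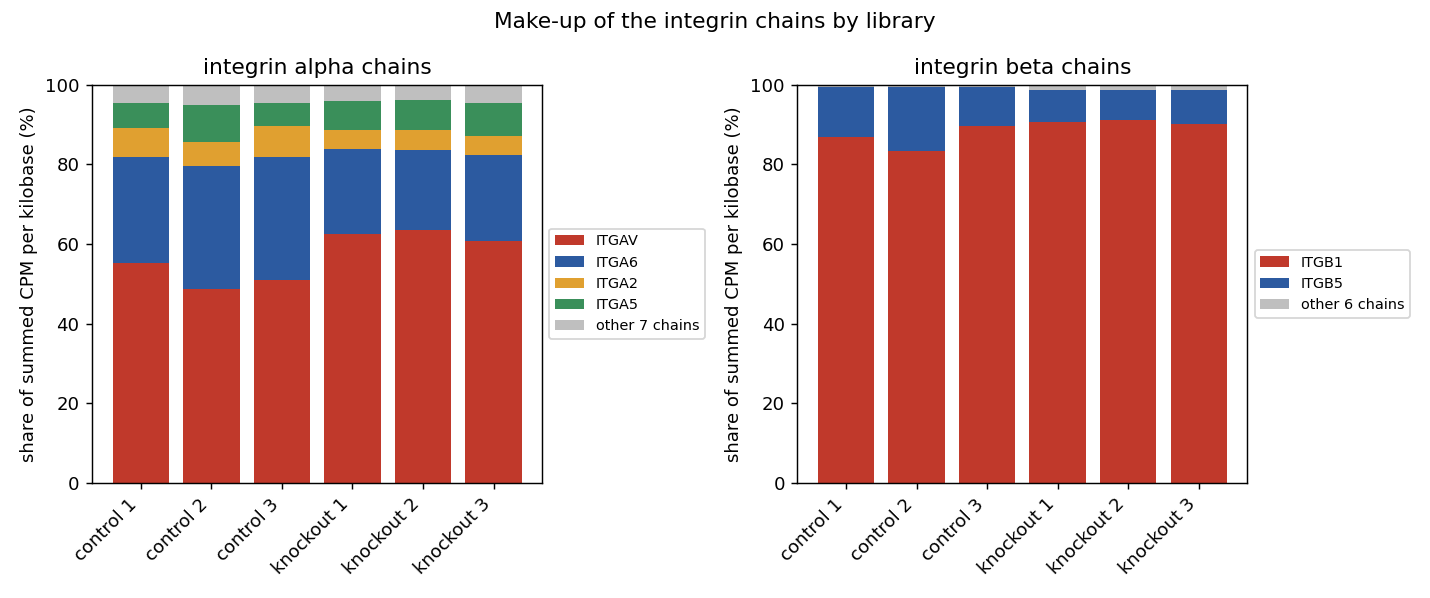
Share (%) of each integrin chain in the summed CPM per kilobase of the 11 alpha chains (left) or the 8 beta chains (right) of the list, 1 bar per library. ITGAV takes 48.6% to 55.1% of the alpha chains in the controls and 60.7% to 63.6% in the knockout, and ITGB1 takes 83.5% to 91.1% of the beta chains in every library.

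Of the 23 adaptors, 22 were tested. Of these, 9 were higher, 2 were lower and 11 were not called, beside 21.1% higher and 19.0% lower over all genes tested. Their median log2 fold change was 0.24 beside 0.05 over all genes. Without knockout replicate 1 or 2, 5 were called higher, where 14.2% and 14.8% of all genes tested were. Of the 9, TNS1 rose 2-fold or more. TNS4, a tensin of epithelial cells, was not seen in the controls and had counts of 0, 13 and 4 in the knockout, most of them in replicate 2. With 3 counts put in for the control group, as for ITGB2, the ratio was 5.01, again with the knockout counts taken as seen.

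Among proteins that switch integrins on, TLN2, the less abundant talin in most tissues, rose. It had 52.4, 62.5 and 53.9 CPM in the controls and 86.4, 71.1 and 76.5 CPM in the knockout, 1.39-fold higher and without overlap (edgeR adjusted p = 0.0106), and its call was lost without knockout replicate 1 (0.0762). TLN1, the main talin, had 385 to 482 CPM in the controls and 433 to 451 CPM in the knockout and was not called (log2 fold change 0.07 ± 0.11 SE). It was called higher with cyclic loess (0.35, adjusted p = 0.0297) and its sign turned without control replicate 1 or 3 (−0.00059 and −0.02). The kindlins FERMT1 and FERMT2 were not called, with log2 fold changes of −0.44 ± 0.24 and 0.01 ± 0.14 (SE). FERMT1 was called lower with cyclic loess (−0.77, adjusted p = 0.0276), and FERMT2 changed sign with scaling and is given no direction.

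The complex that ILK forms with parvins and PINCH (LIMS1) held both falls among the adaptors. ILK, its scaffold, had 90.5, 110 and 98.2 CPM in the controls and 62.3, 66.4 and 60.2 CPM in the knockout. The groups were apart, at 1.58-fold lower (log2 fold change −0.66 ± 0.11 SE, edgeR adjusted p = 0.00129). PARVB, beta-parvin, had 14.9, 20.3 and 17.0 CPM in the controls and 9.55, 11.1 and 10.5 CPM in the knockout. It was lower in each knockout library, at 1.67-fold (log2 fold change −0.74 ± 0.16 SE, edgeR adjusted p = 0.00414). Both calls held in all 16 other settings. PARVA, alpha-parvin, stood at 12.4 to 13.5 CPM in the controls and 13.6 to 17.6 CPM in the knockout, without overlap, and was not called (0.22 ± 0.15 SE). LIMS1 was not called either (0.16 ± 0.12 SE), except with library size alone, and it has near-identical relatives that can share its reads. The difference between PARVA and PARVB was not tested.

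Linkers to actin were 2 rises in 3 tested. VCL, vinculin, had 266, 281 and 274 CPM in the controls and 356, 334 and 320 CPM in the knockout, 1.23-fold higher and without overlap (edgeR adjusted p = 0.0316). In GENCODE 29, 1109 of its exon bases overlap AP3M1 on the opposite strand. That call was lost without control replicate 1 (0.0684), without knockout replicate 1, 2 or 3 (0.172, 0.116 and 0.0662), with the replicate block (0.106), with DESeq2's size factors (0.0501) and with no filter (0.0531). For TNS1, tensin 1, counts were 57, 32 and 6 in the controls against 145, 172 and 80. Both groups varied widely and did not overlap, at 3.82-fold higher (log2 fold change 1.93 ± 0.55 SE, edgeR adjusted p = 0.0182). It was not called without control replicate 2 (2.01, 0.0572), without knockout replicate 2 (1.65, 0.0738) or with cyclic loess (1.69, 0.0526). TNS3, far more abundant at 274 to 342 CPM in the controls and 318 to 335 CPM in the knockout, was not called (0.12 ± 0.11 SE), but was with cyclic loess (0.38, adjusted p = 0.0203) and library size alone (0.31, 0.0484).

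Of the 5 signalling proteins tested, 1 was called. SRC, the tyrosine kinase that acts with FAK, had 70.6, 87.3 and 71.2 CPM in the controls and 125, 116 and 121 CPM in the knockout. Every knockout library lay above every control, at 1.58-fold (log2 fold change 0.66 ± 0.12 SE, edgeR adjusted p = 0.00163), and the call held in all 16 other settings. PTK2, FAK itself, had 115 to 129 CPM in the controls and 119 to 123 CPM in the knockout and was not called (−0.03 ± 0.10 SE). BCAR1 (0.00 ± 0.13 SE) was not called either, and the signs of PTK2 and BCAR1 turned with upper-quartile scaling and library size alone. PTK2B, the FAK relative PYK2, and PXN, paxillin, were not called at 0.33 ± 0.13 and −0.26 ± 0.12 (SE). Their groups did not overlap; PTK2B passed without control replicate 2 (0.39, adjusted p = 0.0499), under upper-quartile scaling (0.0260) and under library size alone (0.0128), and PXN passed as lower without control replicate 1 (−0.40, 0.0116).

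LIM-domain proteins that gather at tensed adhesions included the smallest p among the adaptors. TES, testin, had 79.8, 89.1 and 87.3 CPM in the controls and 159, 157 and 161 CPM in the knockout. The groups lay far apart, at 1.86-fold higher (log2 fold change 0.90 ± 0.10 SE, edgeR adjusted p = 0.000123). LPP had 127, 104 and 151 CPM in the controls and 206, 199 and 186 CPM in the knockout, 1.54-fold higher and without overlap (log2 fold change 0.63 ± 0.14 SE, edgeR adjusted p = 0.00541). Both calls held in all 16 other settings. Zyxin (ZYX), their relative, overlapped between the groups, at 51.1, 86.4 and 81.2 CPM against 88.2, 90.5 and 84.6 CPM (0.27 ± 0.18 SE, adjusted p = 0.246).

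All 3 caveolar proteins rose. Caveolae are membrane pits that CAV1 and CAV2 coat with the help of CAVIN1. CAV2 had 20.3, 23.0 and 18.8 CPM in the controls and 38.4, 36.3 and 34.6 CPM in the knockout, 1.76-fold higher with the groups apart (log2 fold change 0.82 ± 0.12 SE, edgeR adjusted p = 0.000628). CAV1 had 19.8, 21.6 and 17.9 CPM in the controls and 27.2, 26.7 and 25.3 CPM in the knockout. CAVIN1 had 39.3, 45.9 and 28.7 CPM against 56.6, 53.9 and 50.2 CPM. Both were apart between the groups, at 1.34-fold and 1.41-fold (edgeR adjusted p = 0.0195 and 0.0307). CAV1 was not called without any 1 knockout library (0.0875, 0.0818 and 0.0518). CAVIN1 was not called without control replicate 1 or 3 (0.0775 and 0.0658) or without any 1 knockout library (0.111, 0.0915 and 0.0607), and the call of CAV2 held in all 16 other settings.

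TES, CAV2 and CAV1 are consecutive protein-coding genes on chromosome 7 in the RefSeq annotation of GRCh38.p14, a property the list did not use. The coding gene before TES, TFEC, was also called higher (log2 fold change 0.94 ± 0.21 SE, edgeR adjusted p = 0.00574), and the one after CAV1, the receptor MET, was not called (−0.03 ± 0.13 SE). MDFIC, next beyond TFEC, was not called (−0.30 ± 0.14 SE), nor was CAPZA2 beyond MET (0.26 ± 0.15 SE). The outer neighbours FOXP2 and ST7 fell (−0.99 ± 0.29 and −0.75 ± 0.14 SE, adjusted p = 0.0191 and 0.00221). These 6 neighbours were looked up after the values of TES, CAV2 and CAV1 were seen.

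**Figure D4:**
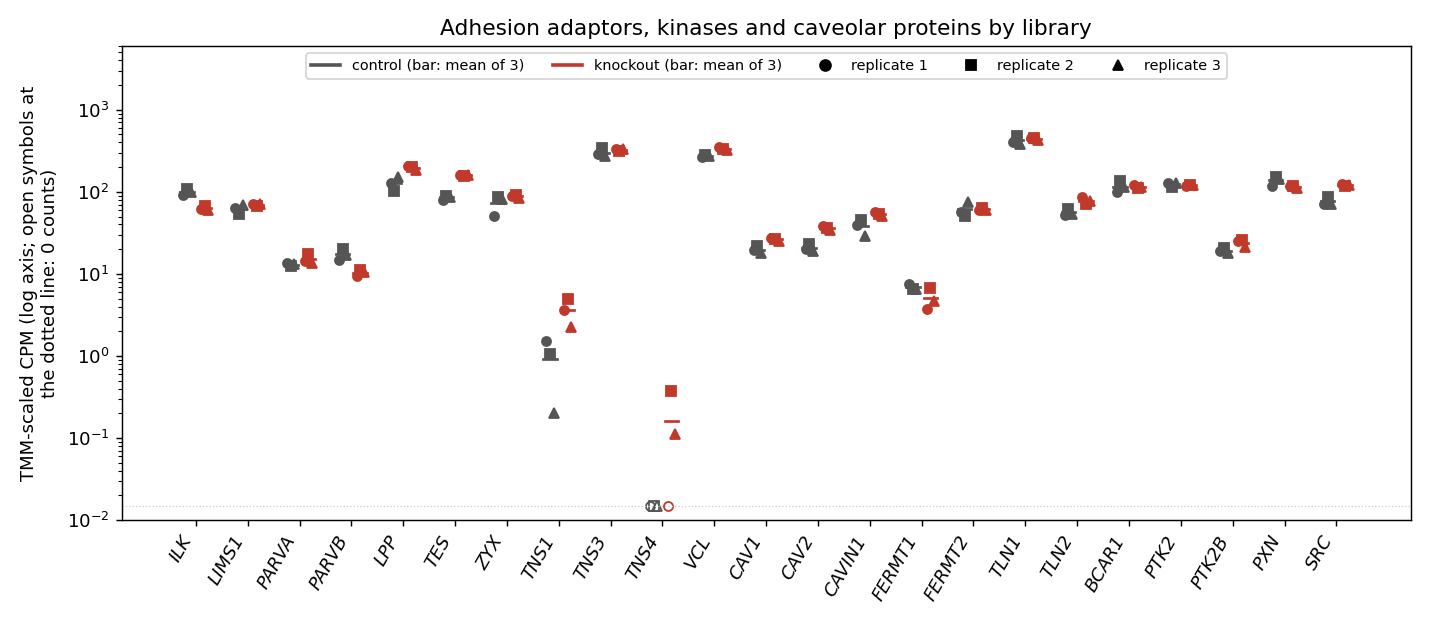
TMM-scaled CPM (log axis) of the 23 adaptors, kinases and caveolar proteins in each library, ordered by role, grey for control and red for knockout, with symbols for replicates 1 to 3 and a bar at each mean; open symbols at the dotted line are 0 counts. TES, CAV2 and SRC sit higher in all 3 knockout libraries and ILK and PARVB sit lower.

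**Figure D5:**
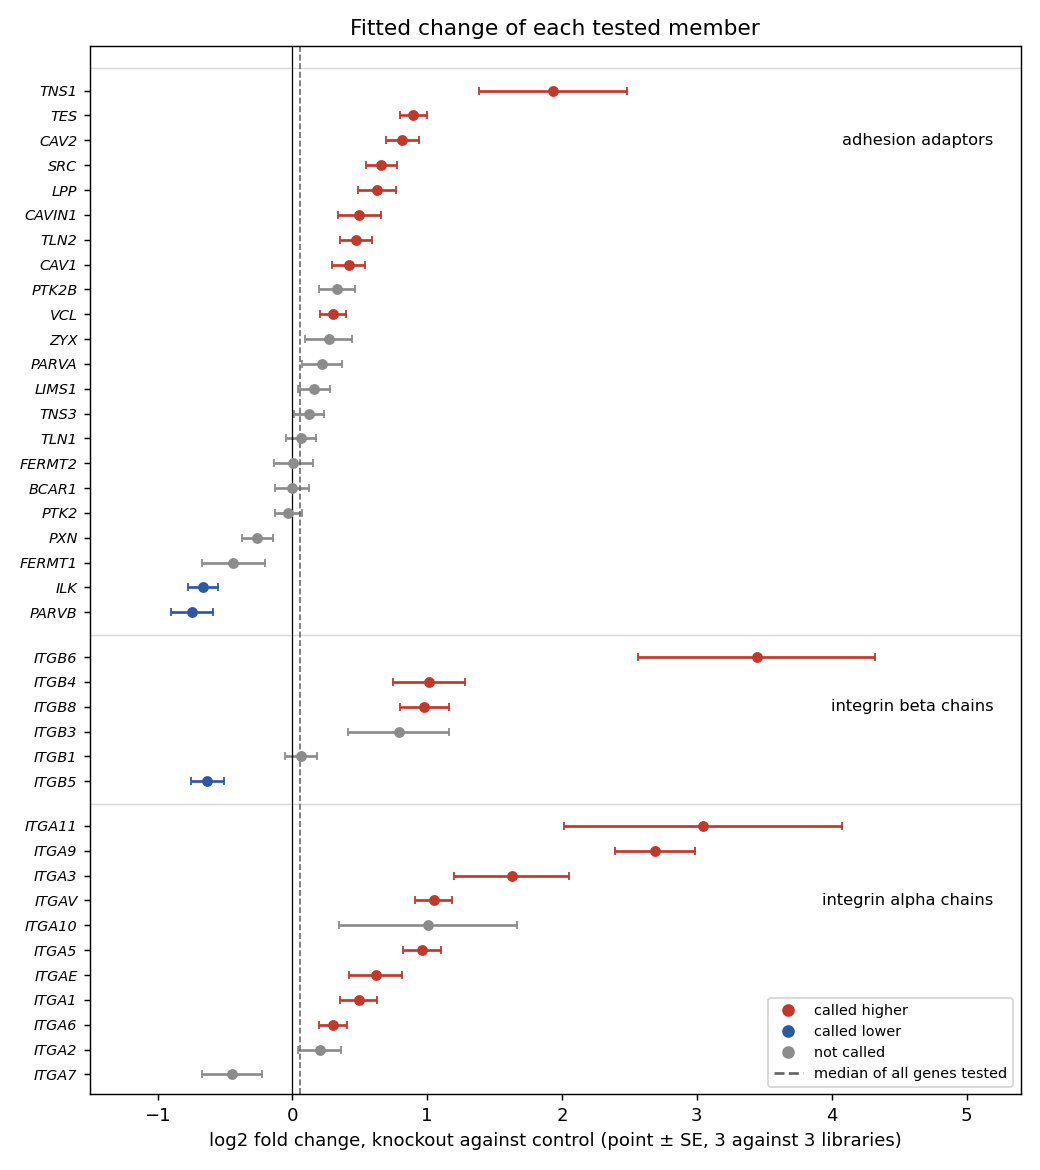
Fitted log2 fold change with its SE for the 39 tested members, in blocks of alpha chains, beta chains and adaptors; red is called higher, blue called lower and grey not called, and the dashed line is the median of all genes tested (0.05). Alpha chains run from −0.45 to 3.05, beta chains from −0.63 to 3.44 and adaptors from −0.74 to 1.93.

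Other genes of the pathway were read from lists that do not overlap with the members and were chosen with earlier results of these data known. Of 25 integrin ligands tested, in a list of mostly matrix proteins that also holds the cell-surface proteins ICAM1, VCAM1 and CDH1, 16 were higher and 2 were lower, with a median log2 fold change of 1.00. Of all genes tested, 21.1% were higher and 19.0% lower, with a median of 0.05. Among the 16, COL4A1 had 0, 4 and 4 counts in the controls against 59, 216 and 66. It passed the filter through its knockout counts alone, so it could enter the test only as a rise. The 2 ligands that fell were the basement membrane protein NID1 (−0.48 ± 0.14 SE) and ICAM1 (−0.38 ± 0.12 SE), both named after their values were seen. No ligand was called lower without control replicate 2 or without knockout replicate 1 or 2, and 1 was without control replicate 3. The laminin chain LAMA3 rose by 2.81 ± 0.13 (SE), the latent TGF-beta binding protein LTBP1 by 2.26 ± 0.15 and CCN1, a matricellular ligand, by 1.69 ± 0.14 on the log2 scale. Fibronectin (FN1) and vitronectin (VTN), the classical RGD ligands, were abundant and not called, with means of 4223 and 883 CPM in the controls and 4060 and 822 CPM in the knockout. COL4A1, FN1 and VTN were named after their values were seen.

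Further adaptors and kinases went mostly uncalled, with 4 of 38 higher and 8 lower at a median of −0.03. Over all genes tested the shares were 21.1% higher and 19.0% lower, so the falls were near that share. The median over all genes was 0.05. AJUBA, a LIM protein related to zyxin, rose by 0.83 ± 0.11 and the caveolar protein CAVIN2 by 3.18 ± 0.44 (SE) on the log2 scale. CAVIN2 was rare, with 15, 4 and 8 counts in the controls against 109, 69 and 99. Its relatives CAV3 and CAVIN3 had too few counts to test. EHD2 and PACSIN2, also linked to caveolae, were not called (−0.03 ± 0.17 and 0.06 ± 0.10 SE). These other caveolar genes were named after their values were seen. The actin regulator VASP had a log2 fold change of −0.78 ± 0.14. With library size alone 9 of these genes were higher and 4 lower, and under upper-quartile scaling 5 were lower, so the balance of this list moves with the scaling. Without knockout replicate 1, 2 or 3 it had 2 called higher each time, and 4, 4 and 5 called lower. Of all genes tested, 14.2%, 14.8% and 15.7% were then called higher and 12.3%, 12.6% and 13.9% lower. Integrin inhibitors and trafficking proteins had 1 rise and 1 fall among 14: FBLIM1, migfilin, at 0.45 ± 0.11 and KANK1, a talin-binding protein, at −0.95 ± 0.10 (SE). Both counts were below the shares over all genes tested, 21.1% higher and 19.0% lower. FBLIM1 was not called without knockout replicate 1, which left no rise, while 2 genes were higher without control replicate 2 or 3 and 2 were lower without control replicate 1. Of 7 alpha chains outside the members, 3 were tested and 1, the myeloid chain ITGAM, rose from 14, 7 and 7 counts to 57, 57 and 36 (2.25 ± 0.47 SE). ITGAL, the other leukocyte chain measured, had 541 to 614 counts in the controls and 488 to 559 in the knockout and was not called, although ITGB2, its only known partner, had 0 to 6 counts per library. ITGAL was named after its values were seen.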

How the data were processed

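RNA-seq gene counts of 6 Huh7 libraries were used, 3 per group. Per the labels' protocols, libraries were made from column-purified total RNA with a SMARTER mRNA kit. The deposited values are raw read counts per gene, made by the authors, with 1 column per library matched by its description. The submitters' processing notes name hg19. No source used here names the aligner, the counting tool, the annotation or the strand setting. In GENCODE 29 the exons of 24 of the 42 members overlap another gene, for 7 of them a gene with its own row, and such genes can share reads.

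Symbols were matched to Ensembl IDs through a table of gene names. The test was run with edgeR 4.0.16 (R 4.3.3): filterByExpr with default settings kept 16331 of 25202 rows, libraries were scaled by TMM (factors 0.925 to 1.08), and groups were compared by the quasi-likelihood test with Benjamini-Hochberg adjustment over all genes tested. Each SE is the log2 fold change divided by the square root of F. The common biological coefficient of variation was 17.6%. CPM values were computed here. Levels per kilobase use merged exon lengths of GENCODE 29, and no coordinates of that build are given.

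The members and lists were chosen with earlier results of these data known. The rule for named genes took HNRNPA2B1, every member, and up to 4 called genes with the smallest p of each further pathway list; marker genes were free to be named, and others outside the rule are pointed out. Some items that the rule would name are not reported here. Alternatives changed the scaling (library size alone, upper quartile, or the size factors of DESeq2), the filter (none, or at least 1 CPM in 3 libraries), the tool (DESeq2 1.42.0, limma-voom or cyclic loess of log2 CPM with limma-trend, limma 3.58.1, prior count 2), the design (the replicate block, or 1 library left out) or the threshold (adjusted p below 0.01). No 2 libraries of a group were alike within sampling noise (chi-square per degree of freedom at least 9.35). It was 53.8 to 83.6 between control libraries and 9.35 to 28.9 between knockout libraries, while the test used the same dispersion for both groups. The code was checked on simulated counts. The binomial interval covers counting error only. The ratios with 3 counts put in for the controls allow for no error in the knockout counts. Plots used matplotlib 3.10.9 (Python 3.11.15).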

Additional observations from a re-analysis of the deposited data

How the results depend on the processing

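Of the 23 called members, 11 (8 higher, 3 lower) were called in the same direction in all 16 other settings. Members called higher were 20, and 17 with the replicate block; those called lower were 3 in both. Replicate numbers did not pair the libraries: deviations of same-numbered libraries correlated at 0.042, −0.071 and −0.073. Leaving out 1 library gave 11 to 18 members higher and 3 to 4 lower, with 3 to 7 alpha chains, 2 to 3 beta chains and 5 to 9 adaptors higher. At an adjusted p below 0.01, 8 members, 3 alpha chains, 1 beta chain and 4 adaptors were higher. The share of all genes tested that was called higher ran from 14.2% to 20.5% without 1 library and was 12.6% at that threshold. The share called lower ran from 12.3% to 20.4% and was 11.8%. Cyclic loess gave 4 alpha chains higher and 1 lower, and 5 members lower in all; the cause was not tested.

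Upper-quartile scaling and library size alone gave medians of 0.16 and 0.24 over all genes (0.05 with TMM) and 0.52 and 0.60 over the members (0.42 with TMM). The share of rises among all called genes went from 52.7% to 64.4% and 72.1%, and members numbered 21 and 23 higher with 3 lower. The summed beta chain level, log2 knockout over control, was 0.00203 with TMM, 0.19 with library size alone, −0.026 with DESeq2's size factors and −0.0785 to 0.076 without 1 library.

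Signs that turned belonged to members not called. FERMT2 gave −0.0206 with DESeq2's size factors, −0.0229 with DESeq2 and −0.12 to 0.16 without 1 library. BCAR1 gave 0.10 with upper-quartile scaling, 0.18 with library size alone, 0.00699 with the replicate block, 0.0095 with limma-voom, 0.18 with cyclic loess and −0.14 to 0.10 without 1 library. PTK2 gave 0.0775, 0.15 and 0.15 with upper-quartile scaling, library size alone and cyclic loess. TLN1 ran from −0.0235 to 0.155 and ITGB1 from −0.0521 to 0.146 without 1 library. A filter of 1 CPM in 3 libraries gave no value for ITGA10, ITGA11 and ITGB6.

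Counts of the further lists also moved. Integrin ligands called lower went from 2 to 0 with upper-quartile scaling, library size alone and cyclic loess. Further adaptors called lower went from 8 to 5 with the replicate block and those called higher from 4 to 8 with cyclic loess. Without 1 library, further adaptors numbered 2 to 5 higher and 4 to 10 lower, and inhibitors and trafficking proteins 0 to 2 higher and 1 to 2 lower.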
